A study of Mus musculus with 4 samples.

Results

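The major histocompatibility complex of the mouse, H2, was examined in the spleen of female Nrf2 knockout mice and their wild-type littermates. All non-control probe sets whose platform symbols included one beginning with H2- were taken, together with those of B2m, Tap1, Tap2, Tapbp, Cd74 and Ciita. This gave 58 of the 12422 non-control probe sets, covering 43 genes, and 48 of the 58 were bright enough to test. By symbol, 9 probe sets stood for classical class I genes, 21 for nonclassical class I genes, 4 for genes of both kinds and 13 for class II genes. A further 7 stood for the class I partners B2m, Tap1, Tap2 and Tapbp, 2 for the class II partners Cd74 and Ciita, and 2 for H2-Ke6, an enzyme gene of the region that encodes no MHC molecule.

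Total RNA of whole spleen was measured on 4 one-colour arrays, 2 from Nrf2 -/- females and 2 from Nrf2 +/+ females, all aged 5 months. Nrf2, encoded by Nfe2l2, is a transcription factor that induces genes of antioxidant defence and detoxification. Per the labels, the parental cross joined Nrf2 +/+ animals of C57B6/SJL background with Nrf2 -/- animals of C57B6/129SVJ background, and both genotypes were littermates from the interbred heterozygotes. Whether 1 mouse or a pool gave the RNA of an array is not in the labels, and p-values therefore reflect a spread between samples that may be technical. Values are deposited probe-set intensities, and the number of arrays limits their precision. The Nfe2l2 probe set read 202 and 178.6 in knockout spleens, against 3537.4 and 6321.1 in wild-type spleens, a log2 difference of -4.61 (SE 0.47; limma adjusted p = 0.01995). No array went against its label, with knockout replicate 2 under the floor of 185 that was set on low intensities, but where this probe set lies relative to the deleted part of the gene is not known here.

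Class I molecules display peptides from inside the cell to CD8 T cells and natural killer cells. Each pairs a heavy chain with beta-2 microglobulin, is loaded with peptides brought in by the Tap1 and Tap2 transporter, and is held for loading by tapasin, the product of Tapbp. Class II molecules, on B cells, dendritic cells and macrophages, display peptides from endosomes to CD4 T cells, with the invariant chain Cd74 and the DM molecules as helpers and Ciita as the master activator of their transcription. The region is among the most polymorphic of the genome. C57BL/6 mice carry the H2 haplotype b, SJL mice haplotype s, and 129 mice a haplotype close to b, and H2-Ea is not expressed in haplotypes b and s. The labels give the H2 type of no animal, and a difference in haplotype between arrays, which can alter how a transcript binds a single probe set, cannot be told apart from a difference in level.

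Class I and class II genes are known to share an upstream module of X and Y boxes, and class I genes an interferon response element. Promoters of 5 members are shown because their genes are the bright class I heavy chain, class II chain and light chain members around which the results are ordered. Each runs over 300 bases around the annotated start, from RefSeq on GRCm38.p6, 5′ to 3′ on the gene's strand. Capitals mark the Y box core ATTGG, the X box part AGNNACNGA and the interferon response core AANNGAAA, searched on both strands. Places are chr17:34000298-34000597, minus strand, for H2-K1, chr17:35262844-35263143, plus strand, for H2-D1, chr17:34287774-34288073, minus strand, for H2-Aa, chr17:34305617-34305916, plus strand, for H2-Eb1, and chr2:122147437-122147736, plus strand, for B2m.
H2-K1: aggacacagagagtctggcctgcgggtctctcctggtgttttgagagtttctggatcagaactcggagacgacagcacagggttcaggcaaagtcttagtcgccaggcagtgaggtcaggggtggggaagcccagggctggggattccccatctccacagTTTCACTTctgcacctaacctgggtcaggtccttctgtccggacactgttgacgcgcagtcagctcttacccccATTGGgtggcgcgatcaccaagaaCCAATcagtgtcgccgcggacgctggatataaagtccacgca
H2-D1: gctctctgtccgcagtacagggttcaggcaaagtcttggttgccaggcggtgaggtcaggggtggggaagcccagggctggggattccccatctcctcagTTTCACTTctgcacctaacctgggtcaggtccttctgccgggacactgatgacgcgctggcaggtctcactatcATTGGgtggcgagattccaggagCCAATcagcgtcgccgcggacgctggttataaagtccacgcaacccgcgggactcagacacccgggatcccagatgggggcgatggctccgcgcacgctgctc
H2-Aa: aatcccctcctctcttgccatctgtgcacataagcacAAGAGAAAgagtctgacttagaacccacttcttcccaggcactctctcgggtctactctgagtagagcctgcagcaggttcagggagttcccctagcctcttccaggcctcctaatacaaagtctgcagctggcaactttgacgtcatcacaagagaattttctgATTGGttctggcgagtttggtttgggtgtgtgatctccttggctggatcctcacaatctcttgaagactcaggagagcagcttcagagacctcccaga
H2-Eb1: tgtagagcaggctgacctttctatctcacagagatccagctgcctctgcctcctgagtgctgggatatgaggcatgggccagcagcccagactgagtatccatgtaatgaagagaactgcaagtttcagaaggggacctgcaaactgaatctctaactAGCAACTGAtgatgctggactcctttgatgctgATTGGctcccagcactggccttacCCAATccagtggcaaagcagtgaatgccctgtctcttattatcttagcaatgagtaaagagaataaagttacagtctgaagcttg
B2m: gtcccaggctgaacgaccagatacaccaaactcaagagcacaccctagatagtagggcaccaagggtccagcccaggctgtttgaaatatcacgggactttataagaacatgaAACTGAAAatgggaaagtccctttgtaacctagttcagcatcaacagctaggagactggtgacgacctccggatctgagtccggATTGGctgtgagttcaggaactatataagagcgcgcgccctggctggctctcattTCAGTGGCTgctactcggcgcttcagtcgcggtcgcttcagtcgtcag

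The H2-D1 promoter held TTTCACTT from -150 to -143 and the Y box core from -76 to -72 relative to the annotated start, with a second core in the other orientation from -53 to -49. H2-K1 held the same 3 matches in the same order, but its first Y box core lay from -16 to -12. The 2 promoters were identical at 60.4% of 361 aligned positions. Of the pairs aligned, H2-D1 with the nonclassical H2-Q4, whose first core lay from -79 to -75, was the closest at 75.4%. H2-Q7 matched H2-K1 at 69.6% and H2-D1 at 64.9%. H2-D1 with B2m came to 51.9% and H2-Aa with H2-Eb1 to 49.3%. Whole windows were aligned end to end, though their annotated starts were not in register. The shares therefore depend on where each start is annotated and do not rank how alike the promoters are. H2-Eb1 held AGCAACTGA from -92 to -84, upstream of its Y box core from -59 to -55. Among all 32851 promoters in the RefSeq table, 37.4% held the Y box core, 17.7% the X box part and 23.9% the interferon core. Of the 30 promoters listed for 27 member genes, 27 held the Y box core, 10 the X box part and 20 the interferon core. The interferon core stood in 14 of the 17 class I heavy chain promoters and in 4 of the 9 class II promoters. A match describes letters and was not tested as a site.

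None of the 48 tested members passed limma's test at an adjusted p of 0.05, where 4 of 7453 tested probe sets did (0.0537%). None reached an unadjusted p under 0.05 either, a level that 1.74% of tested probe sets reached, and the smallest unadjusted p among members was 0.1256. Both knockout arrays lay above both wild-type arrays in 4 members (14.3% of all tested probe sets) and below them in 4 (12.2% of all tested probe sets). The 48 log2 differences ran from -0.82 to 0.63, with a median size of 0.20 against 0.32 over all tested probe sets. None exceeded 2-fold, as 5.46% of all tested probe sets did. The 95% confidence intervals of the members spanned -2.32 to 2.22. A 2-fold rise lay within the interval of 23 of the 48 and a 2-fold fall within that of 30. In whole spleen, fewer cells of a type and less RNA per cell cannot be told apart.

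**Figure D1:**
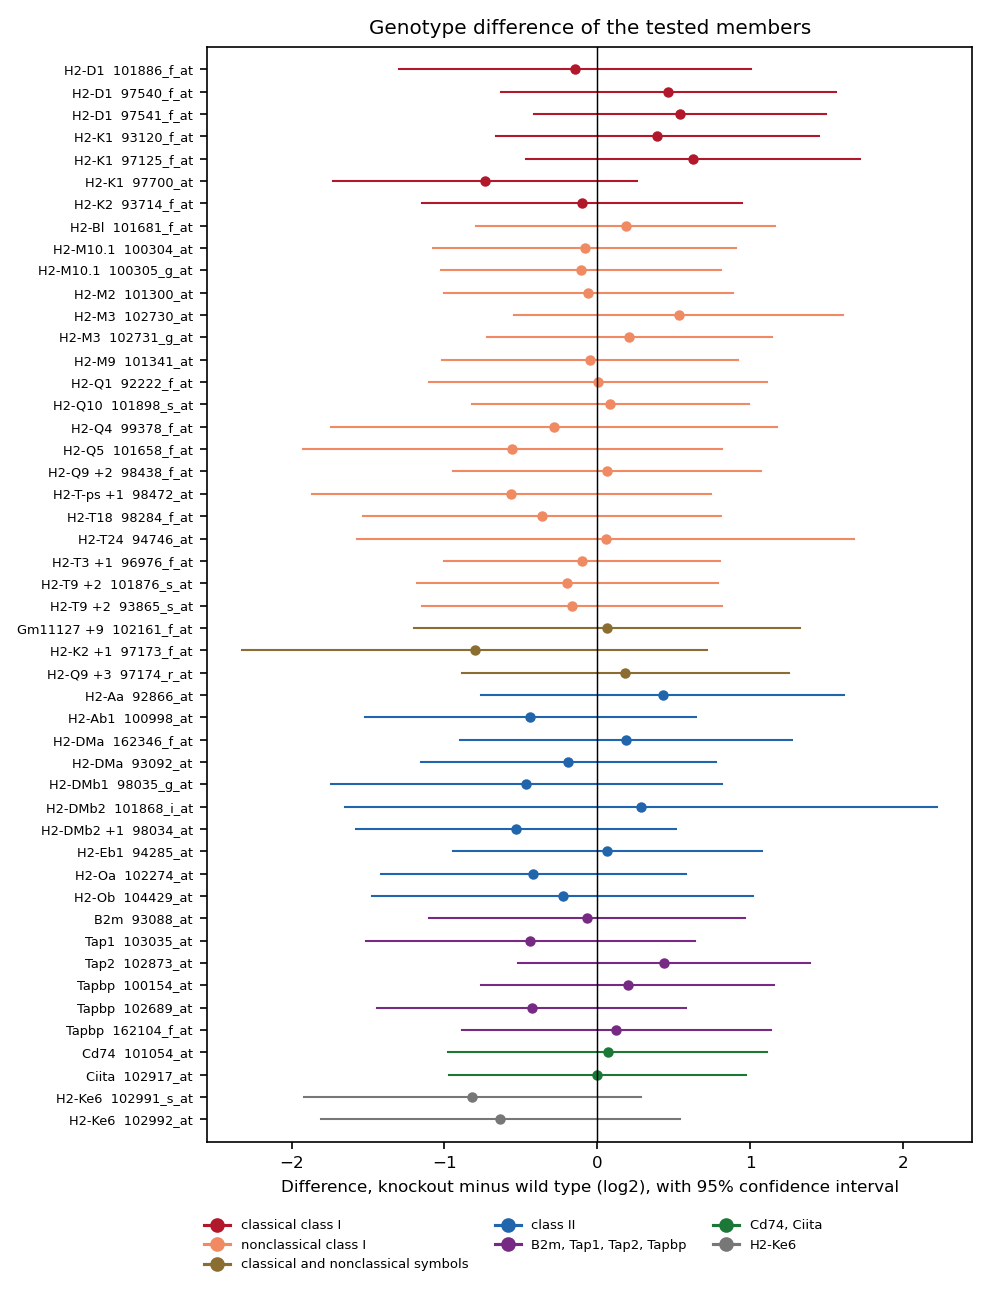
Difference between knockout and wild-type spleen (log2, horizontal axis) for the 48 tested members, as points with 95% confidence intervals, coloured by class. A plus sign and number after a symbol count the further symbols of a probe set. Every interval includes 0, and the points lie between -0.82 and 0.63.

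The classical class I genes H2-K1 and H2-D1 encode the main peptide-presenting heavy chains. Their brightest probe sets were among the strongest signals of the spleen in all 4 arrays, and both read lowest in wild-type replicate 1. H2-K1 (93120_f_at) read 106405 and 112137 in knockout spleens, against 68886 and 100668 in wild-type spleens. Both knockout values were the higher ones, but the knockout arrays lay closer to wild-type replicate 2 than that array did to its own partner. The log2 difference was 0.39 (SE 0.46; 95% interval -0.67 to 1.45), and 0.12 without wild-type replicate 1. H2-D1 (97540_f_at) read 86980 and 92109 in knockout spleens, against 49292 and 85343 in wild-type spleens, again without overlap, with a difference of 0.46 (SE 0.47) that was 0.07 without wild-type replicate 1.

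The other probe sets of these genes did not all run the same way. For H2-K1, 97125_f_at read 27904 and 22008 in knockout spleens, against 11647 and 22124 in wild-type spleens, a difference of 0.63 (SE 0.47). A dimmer H2-K1 probe set, 97700_at, read 784 and 696.9 in knockout spleens, against 1393 and 1088 in wild-type spleens. It was lower in both knockout arrays, with a difference of -0.74 (SE 0.43; unadjusted p = 0.1256, limma adjusted p = 0.992), and it stayed lower with any 1 array left out, between -0.91 and -0.56. The 3 H2-K1 probe sets thus spread over 1.36 on the log2 scale, the widest spread among the 7 member genes with more than 1 tested probe set of their own, leaving out probe sets with several symbols. It was the one tested classical class I probe set whose identifier carries no mark: the other 6 end in _f_at, by which the array's maker marks a probe set that recognises a gene family.

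H2-D1 showed a narrower spread over its 3 probe sets, 0.69. Probe set 97541_f_at read 14241 and 15895 in knockout spleens, against 8817 and 12151 in wild-type spleens, and did not overlap between genotypes (0.54, SE 0.41). Probe set 101886_f_at read 36855 and 24961 in knockout spleens, against 24069 and 46863 in wild-type spleens, a difference of -0.15 (SE 0.50). In this probe set the highest and the lowest array were both wild type. H2-K2, which the reference annotation lists as a transcribed pseudogene, was tested by the family probe set 93714_f_at. Which class I transcripts gave its signal was not tested. This probe set read 93608 and 88930 in knockout spleens, against 116347 and 82073 in wild-type spleens. Its difference of -0.10 (SE 0.45) took the other sign under quantile normalization (0.17) and cyclic loess (0.11). H2-D4, also a transcribed pseudogene in the reference, was too dim to test. Its family probe set read 397.2 and 136.5 in knockout spleens, against 80.3 and 778.3 in wild-type spleens, and its other probe set lay under the floor of 185 in all 4 arrays.

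Over the 7 tested classical class I probe sets the median difference was 0.39, with 4 higher and 3 lower in knockout spleens, against a median of 0.04 over all tested probe sets. The median was 0.12 with wild-type replicate 1 left out and 0.67 with its partner left out. Wild-type replicate 1 was the lowest of the 4 arrays in 5 of these 7 probe sets. For wild-type replicate 1 minus replicate 2, the 6 tested classical class I family probe sets had a median of -0.67, against 0.45 over all 716 tested family probe sets.

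**Figure D2:**
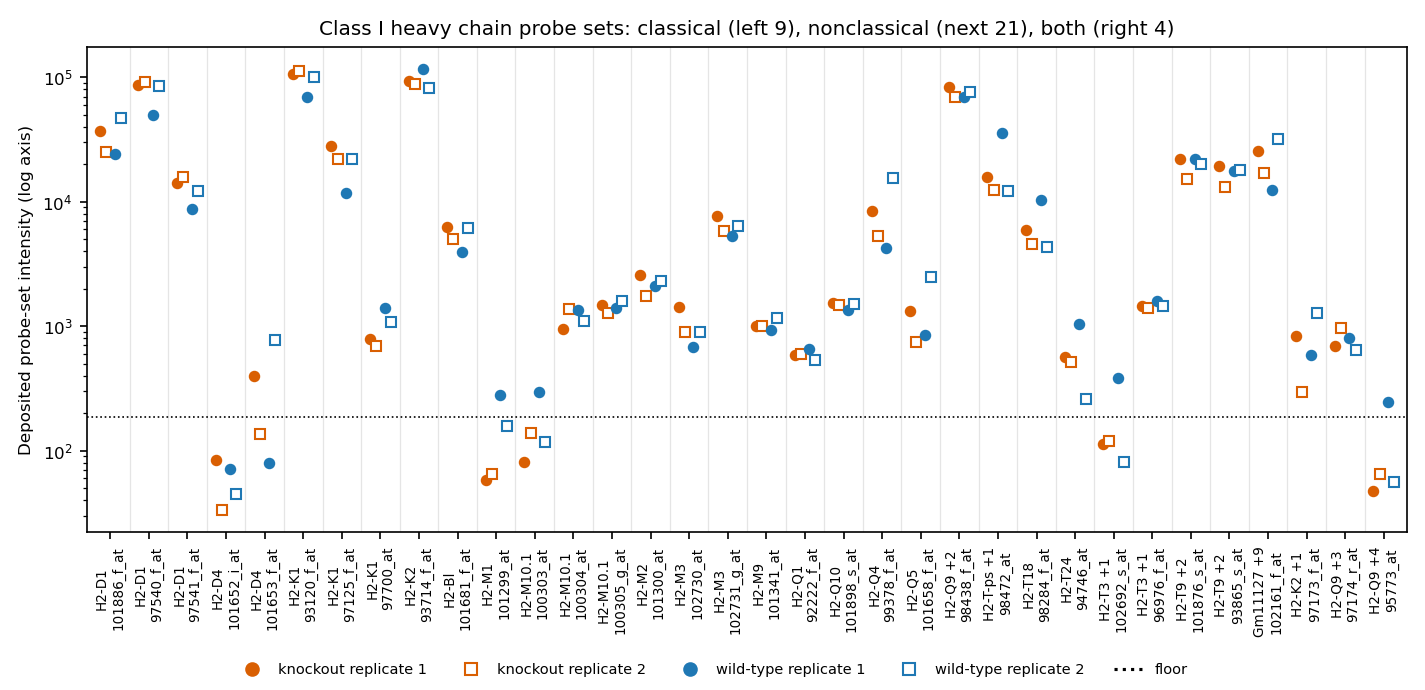
Deposited intensity (log axis) of the class I heavy chain probe sets in the 4 arrays, with knockout arrays in orange and wild-type arrays in blue, replicate 1 filled and replicate 2 open, and the floor as a dotted line, labelled with the first symbol and the number of further ones. Family probe sets annotated to H2-K1, H2-D1, H2-K2 and the Qa-2 genes reach the top of the range, and most members show the 2 genotypes intermixed.

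Wild-type replicate 1 stood apart over the whole array, with Pearson's r of 0.849 to 0.851 across tested probe sets against the other 3 arrays, which shared r of 0.938 to 0.947. Of the 48 members, 1 lay over 2-fold outside what the other 3 arrays spanned (2.08%), against 15.4% of all tested probe sets. The 3′ to 5′ ratio of the Gapdh control was 25.5 and 34.8 in the knockout arrays, against 88.3 and 8.07 in the wild-type arrays, replicate 1 before replicate 2. That of the beta actin control was 19.3 and 16.1 in the knockout arrays, against 14.4 and 8.86 in the wild-type arrays, so wild-type replicate 1 stood out for Gapdh but not for actin. Their part in any member's value was not tested. The exocrine pancreas markers, foreign to spleen, had a median difference of -1.82 over 8 probe sets, 7 of them lower in knockout spleens, and had their highest median in wild-type replicate 1. Without that array their median difference was still -1.21, with 7 of 8 lower.

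The nonclassical class I genes encode heavy chains of limited polymorphism and often specialised ligands. Of the 21 probe sets, 18 were tested, 7 higher and 11 lower in knockout spleens, with a median difference of -0.07. The median lay between -0.10 and 0.06 with any 1 array left out. The brightest, annotated to H2-Q9, H2-Q7 and H2-Q5 (98438_f_at), covers H2-Q7 and H2-Q9, which encode the Qa-2 antigen. It read 83159 and 69189 in knockout spleens, against 69572 and 75581 in wild-type spleens, a difference of 0.06 (SE 0.44). The knockout arrays lay 1.20-fold apart there and the wild-type arrays 1.09-fold.

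The member that stood furthest apart in 1 array was the probe set annotated to H2-T23 and H2-T-ps (98472_at). H2-T23 encodes Qa-1, a heavy chain that presents leader peptides of classical class I molecules to the CD94/NKG2 receptors of natural killer cells. It read 15847 and 12415 in knockout spleens, against 35409 and 12103 in wild-type spleens. Wild-type replicate 1 stood more than 2-fold above the other 3 arrays, which lay close together. The difference was -0.56 (SE 0.57). It was 0.21 with wild-type replicate 1 left out and -1.34 with wild-type replicate 2 left out, the last with a limma adjusted p of 0.07562 that treats the lone wild-type array as varying like the knockout pair.

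H2-T18 (98284_f_at) had the same order of arrays, with 5938 and 4548 in knockout spleens, against 10291 and 4333 in wild-type spleens. H2-T24 (94746_at) read 568.9 and 517.3 in knockout spleens, against 1048 and 260 in wild-type spleens. The wild-type arrays lay 4.03-fold apart, the knockout arrays lay between them, and the difference of 0.06 (SE 0.70) was 1.06 with wild-type replicate 1 left out and -0.95 with wild-type replicate 2 left out. The 2 probe sets annotated jointly to H2-T9, H2-T22 and H2-T10, of which T22 and T10 products are recognised by gamma delta T cells, were close to each other. One (101876_s_at) read 22135 and 15123 in knockout spleens, against 21839 and 20108 in wild-type spleens, and the other differed by -0.17 between genotypes, against -0.20 for the first.

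H2-Q4 and H2-Q5 ran the opposite way between the wild-type arrays. H2-Q4 (99378_f_at) read 8409 and 5328 in knockout spleens, against 4276 and 15571 in wild-type spleens. H2-Q5 (101658_f_at), a transcribed pseudogene in the reference, read 1318 and 747.7 in knockout spleens, against 854.9 and 2488 in wild-type spleens. In both, wild-type replicate 2 was the highest array, by 3.64-fold and 2.91-fold over its partner, and the knockout arrays lay within the wild-type range or just under it. Their genotype differences were -0.29 (SE 0.63) for H2-Q4 and -0.56 (SE 0.59) for H2-Q5. H2-Q1 read between 534.6 and 652.2, and H2-Q10, known as a gene of liver, between 1339 and 1531, with differences of 0.01 and 0.08.

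H2-M3 encodes a heavy chain that presents N-formylated peptides of bacteria and mitochondria. Its brighter probe set (102731_g_at) read 7698 and 5862 in knockout spleens, against 5274 and 6392 in wild-type spleens, and the dimmer one (102730_at) 1435 and 892 in knockout spleens, against 676.9 and 904.2 in wild-type spleens. Both differences were positive, 0.21 and 0.53, and in neither did the genotypes separate. H2-Bl differed by 0.19. H2-M10.1 and H2-M9, of a group known for expression in vomeronasal neurons, read 940.1 to 1594 where tested, and H2-M2 read 1732 to 2600. Their differences lay between -0.11 and -0.05. The probe set annotated to H2-T3 and H2-T18, genes of the thymus leukaemia antigen family, read 1454 and 1394 in knockout spleens, against 1597 and 1458 in wild-type spleens (96976_f_at). It was the one nonclassical member without overlap, by a difference of -0.10 (SE 0.39). Of the 3 untested members, H2-M1 read 57.8 and 64.6 in knockout spleens, against 282 and 158.4 in wild-type spleens. A further H2-M10.1 probe set (100303_at) read 81.7 and 138.2 in knockout spleens, against 295.3 and 116.7 in wild-type spleens. It was far dimmer than the tested H2-M10.1 probe sets. All 3 untested members lay under the floor except in wild-type replicate 1.

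The 4 probe sets with symbols of both kinds could be assigned to no single class. The probe set 102161_f_at, which has the longest list of symbols, read 25410 and 17079 in knockout spleens, against 12473 and 31816 in wild-type spleens. Its difference was 0.06 (SE 0.55), with the 2 wild-type arrays at the 2 ends. The probe set annotated to H2-K2 and H2-Q2 (97173_f_at) read 831.2 and 294.1 in knockout spleens, against 584.3 and 1273 in wild-type spleens, a difference of -0.80 (SE 0.66) with both pairs more than 2-fold apart. The third, 97174_r_at, differed by 0.18, and 95773_at also lay under the floor except in wild-type replicate 1.

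The class II chain genes were among the brightest members. H2-Aa, the alpha chain of I-A, read 66788 and 58171 in knockout spleens, against 31158 and 69006 in wild-type spleens. Wild-type replicate 1 was the low array and the other 3 lay close together. The difference of 0.43 (SE 0.51; 95% interval -0.76 to 1.62) was -0.15 without wild-type replicate 1. Its partner chain did not share this order. H2-Ab1, the beta chain of I-A, read 43833 and 25199 in knockout spleens, against 50547 and 40070 in wild-type spleens, with wild-type replicate 1 the highest array. Its difference was -0.44 (SE 0.47; 95% interval -1.52 to 0.65).

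H2-Eb1, the beta chain of I-E, read 53111 and 44085 in knockout spleens, against 40258 and 53093 in wild-type spleens, a difference of 0.07 (SE 0.44). Its alpha chain gene H2-Ea, annotated as a transcribed pseudogene in the reference, read 26.9 and 236.3 in knockout spleens, against 94.2 and 41.8 in wild-type spleens. For H2-Ea 3 arrays lay under the floor of 185 and knockout replicate 2 above it, while its beta chain partner was bright in all 4. H2-Eb2 and the pseudogene H2-Pa lay under the floor in every array.

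H2-DM exchanges the invariant chain fragment for peptide, and H2-O restrains it. The brighter H2-DMa probe set (93092_at) read 15642 and 10840 in knockout spleens, against 14503 and 15186 in wild-type spleens, a difference of -0.19, and the other H2-DMa probe set differed by 0.18. H2-DMb1 (98035_g_at) read 7870 and 3634 in knockout spleens, against 5026 and 10833 in wild-type spleens, with a difference of -0.46 (SE 0.55). Both pairs lay more than 2-fold apart. The probe set for both H2-DMb2 and H2-DMb1 (98034_at) read 9352 and 5224 in knockout spleens, against 11593 and 8804 in wild-type spleens, a difference of -0.53. H2-DMb2 alone (101868_i_at) read 1393 and 389.4 in knockout spleens, against 291.6 and 1253 in wild-type spleens. Both genotypes thus covered nearly the same range, 3.58-fold in the knockout pair and 4.30-fold in the wild-type pair, and the difference was 0.29 (SE 0.84).

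H2-Oa read 8781 and 6840 in knockout spleens, against 12967 and 8287 in wild-type spleens, a difference of -0.42 (SE 0.43). H2-Ob read 3226 and 2523 in knockout spleens, against 2001 and 5573 in wild-type spleens, a difference of -0.23 (SE 0.54). The wild-type values of H2-Ob enclosed both knockout values. Over the 10 tested class II probe sets the median difference was -0.21, with 4 higher and 6 lower in knockout spleens and no member without overlap. It was -0.53 without knockout replicate 1 and 0.08 without knockout replicate 2.

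**Figure D3:**
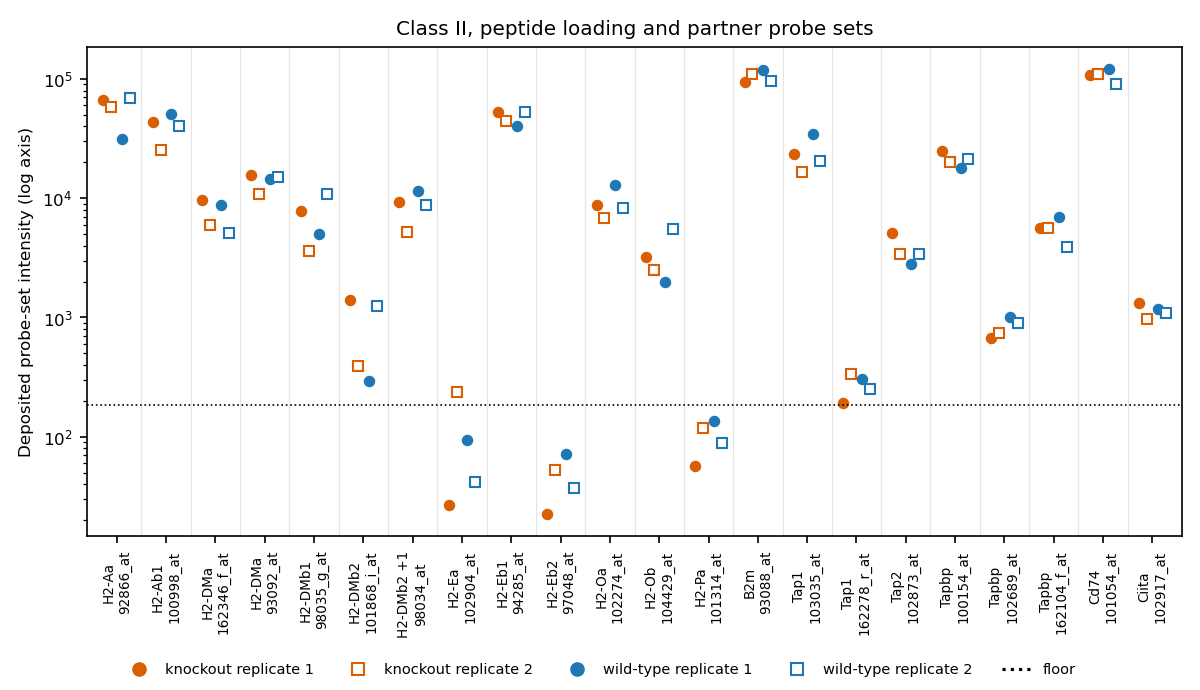
Deposited intensity (log axis) of the class II, class I partner and class II partner probe sets in the 4 arrays, with knockout arrays in orange and wild-type arrays in blue, replicate 1 filled and replicate 2 open, and the floor as a dotted line. Cd74 and B2m sit near the top in every array, H2-Ea, H2-Eb2 and H2-Pa sit near or under the floor, and H2-DMb2 spreads within both genotypes.

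Class II members also differed between the knockout arrays. Knockout replicate 1 read above knockout replicate 2 in all 10 tested class II probe sets, and in 39 of the 48 members, against 3786 of 7453 tested probe sets. The median of the 10 gaps was 0.61. Wild-type replicate 1 read above replicate 2 in 4 of the 10. Erythroid markers moved the other way between the same arrays, with all 8 tested probe sets lower in knockout replicate 1 and a median gap of -2.72. Whether the 2 are linked was not tested. B cell markers had a gap of 0.46 in the same direction as class II, with 8 of 11 higher in knockout replicate 1. The gap was 0.37 for T cell markers (8 of 9 higher), 0.49 for class II proteases (8 of 8) and 0.54 for the immunoproteasome (4 of 4). For neutrophil markers it was -0.10, with 3 of 10 higher. Whether any of these is linked to the class II gap was not tested.

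B2m, the light chain common to class I molecules, and Cd74, the invariant chain, were among the brightest members in every array. B2m read 94506 and 109601 in knockout spleens, against 119208 and 95407 in wild-type spleens, a difference of -0.07 (SE 0.45; 95% interval -1.10 to 0.97) that was 0.20 under quantile normalization and 0.15 under cyclic loess. Cd74 read 108332 and 110843 in knockout spleens, against 120827 and 90404 in wild-type spleens, a difference of 0.07 (SE 0.45; 95% interval -0.97 to 1.11) that was 0.38 under quantile normalization and 0.29 under cyclic loess. Ciita read 1314 and 971.2 in knockout spleens, against 1175 and 1085 in wild-type spleens, and differed by 0.00 (SE 0.42). In all 3 the genotypes overlapped. B2m lies on chromosome 2, as does the targeted gene Nfe2l2, while 39 of the 43 member genes lie on chromosome 17.

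The peptide transporter genes had differences of opposite sign, neither past the threshold. Tap1 (103035_at) read 23699 and 16540 in knockout spleens, against 34714 and 20714 in wild-type spleens, a difference of -0.44 (SE 0.47) with overlap. It was -0.07 when wild-type replicate 1 was left out and -0.81 when its partner was. The other Tap1 probe set was too dim to test, at 191.5 to 338.2. Tap2 read 5118 and 3391 in knockout spleens, against 2810 and 3376 in wild-type spleens. Both Tap2 knockout values were the higher ones, one of them barely, and the difference was 0.44 (SE 0.41). Tapbp had 3 tested probe sets, of which the brightest (100154_at) read 24739 and 20198 in knockout spleens, against 17791 and 21327 in wild-type spleens (0.20, SE 0.42). The dimmest (102689_at) read 667.3 and 747.3 in knockout spleens, against 1013 and 892.8 in wild-type spleens. It was lower in both knockout arrays, by -0.43 (SE 0.44), and the third differed by 0.13, so that the 3 spread over 0.63. The median over the 6 tested class I partner probe sets was 0.03.

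H2-Ke6, a steroid dehydrogenase gene named for its place in the region, held the largest size of difference among members. Probe set 102991_s_at read 3631 and 2030 in knockout spleens, against 6298 and 3633 in wild-type spleens, and the lower wild-type value lay barely above the higher knockout value. The difference was -0.82 (SE 0.48; limma adjusted p = 0.992), and with 1 array left out it ranged from -1.24 without knockout replicate 1 to -0.40 without knockout replicate 2, with -0.42 without wild-type replicate 1. The other probe set also read highest in wild-type replicate 1 and lowest in knockout replicate 2, with 729.8 and 554.2 in knockout spleens, against 1373 and 710.6 in wild-type spleens, and a difference of -0.63 (SE 0.51).

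The gap between the wild-type arrays exceeded the genotype difference in 37 of 48 members (77.1%), against 77.2% of all tested probe sets. This sets a gap between single arrays beside a difference of means, and the knockout pair was not counted in this way. The wild-type arrays lay more than 2-fold apart in 11 members (22.9%, against 28.6% of all tested) and the knockout arrays in 3 (6.25%, against 7.29%). These shares stood near those of all probe sets. In 30 members (62.5%) all 4 arrays lay within 2-fold of each other, against 55.3% of all tested. Of the 11 with wild-type arrays over 2-fold apart, the probe sets of H2-T23, H2-T18 and H2-T24 were higher in wild-type replicate 1. The other 8, of H2-Q4, H2-Q5, the mixed probe sets 102161_f_at and 97173_f_at, H2-Aa, H2-DMb1, H2-DMb2 and H2-Ob, were higher in wild-type replicate 2. In the remaining tested H2-Q and mixed probe sets the wild-type arrays lay less than 2-fold apart. The H2 type of the animals, which could differ between littermates of this cross, was not tested.

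**Figure D4:**
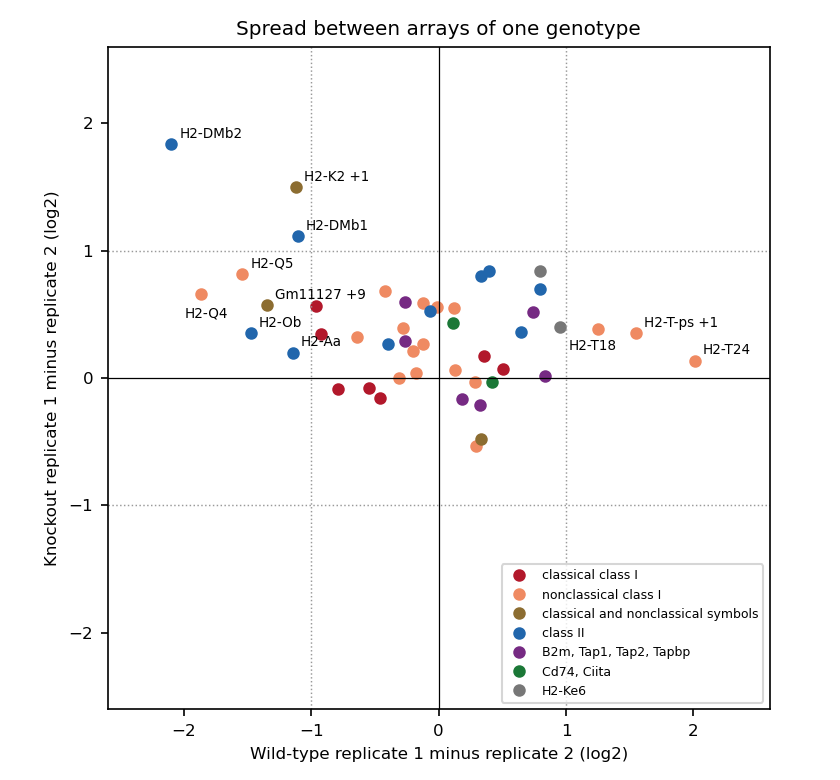
Gap between wild-type replicates 1 and 2 (horizontal axis, log2) and between knockout replicates 1 and 2 (vertical axis, log2) for the 48 tested members, coloured by class, with dotted lines at a 2-fold gap and first symbols beside members past one. Right of the right-hand line lie the probe sets of H2-T23 with H2-T-ps, H2-T18 (98284_f_at) and H2-T24. The other tested H2-T probe sets lie between the dotted vertical lines. Left of the left-hand line lie 8 members, and 39 members lie above the horizontal axis.

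Genes that share the pathway were read from lists. None of their members passed at an adjusted p of 0.05 in limma. Of 8 tested transcription factors of class I and class II genes, 5 were higher and 3 lower in knockout spleens, with a median of 0.04. Nfyb, a subunit of the Y box factor NF-Y, read 1699 and 2101 in knockout spleens, against 838.9 and 1693 in wild-type spleens, a difference of 0.67 (SE 0.47).

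The immunoproteasome cuts proteins into class I peptides, and its 4 tested subunit and activator probe sets all read lower on average in knockout spleens, with a median of -0.61. Psmb10 read 14049 and 9829 in knockout spleens, against 26624 and 14794 in wild-type spleens, a difference of -0.76 (SE 0.47). Psmb8 read 40905 and 27580 in knockout spleens, against 80865 and 35949 in wild-type spleens, a difference of -0.68 (SE 0.53). The other 2, Psme1 and Psmb9, differed by -0.53 and -0.29. Of the 4, 1 had no overlap, Psmb10, which was lower in both knockout arrays (12.2% of all tested probe sets), and the list's median was -0.22 without wild-type replicate 1, the brightest array for 3 of the 4.

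Genes of loading and folding in the endoplasmic reticulum ran the other way, 4 of 5 higher, with a median of 0.42. That median was 0.17 without wild-type replicate 1. The chaperone gene Canx was the lower one, with a difference of -0.45 (SE 0.44). Pdia3, the disulfide isomerase of the class I loading complex, read 10845 and 9028 in knockout spleens, against 2002 and 7978 in wild-type spleens (1.31, SE 0.64; unadjusted p = 0.07446, limma adjusted p = 0.992). The chaperone Hsp90b1 read 59885 and 45708 in knockout spleens, against 15182 and 38981 in wild-type spleens (1.10, SE 0.55). Without wild-type replicate 1, the low array for both, their differences were 0.31 and 0.42.

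The interferon gamma axis, which induces class I and class II genes, had 11 of 13 probe sets higher in knockout spleens and a median of 0.42, but 0.00 without wild-type replicate 1. Gbp2, a guanylate-binding protein gene, had the widest difference of the list. It read 5948 and 4125 in knockout spleens, against 553 and 3952 in wild-type spleens, a difference of 1.74 (SE 0.82) that was 0.33 without wild-type replicate 1. Ifngr1, a receptor chain, differed by 0.50 and by 0.36 without that array. Proteases of the class II pathway had a median of 0.41, with 5 of 8 higher, and 0.11 without wild-type replicate 1. Ctss, which trims the invariant chain, read 67483 and 59729 in knockout spleens, against 21600 and 55782 in wild-type spleens (0.87, SE 0.54). Of the 2 costimulatory genes tested, Cd40 read 3677 and 2095 in knockout spleens, against 6571 and 4299 in wild-type spleens, a difference of -0.94 (SE 0.46; unadjusted p = 0.07553). Cd86, the other costimulatory gene tested, differed by -0.01 (SE 0.43), with overlap. Class I-like genes outside the H2 symbols were tested in 3 cases, with a median of 0.24 that was -0.37, with none of the 3 higher, when wild-type replicate 1 was left out, and 0.68 when its partner was.

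**Figure D5:**
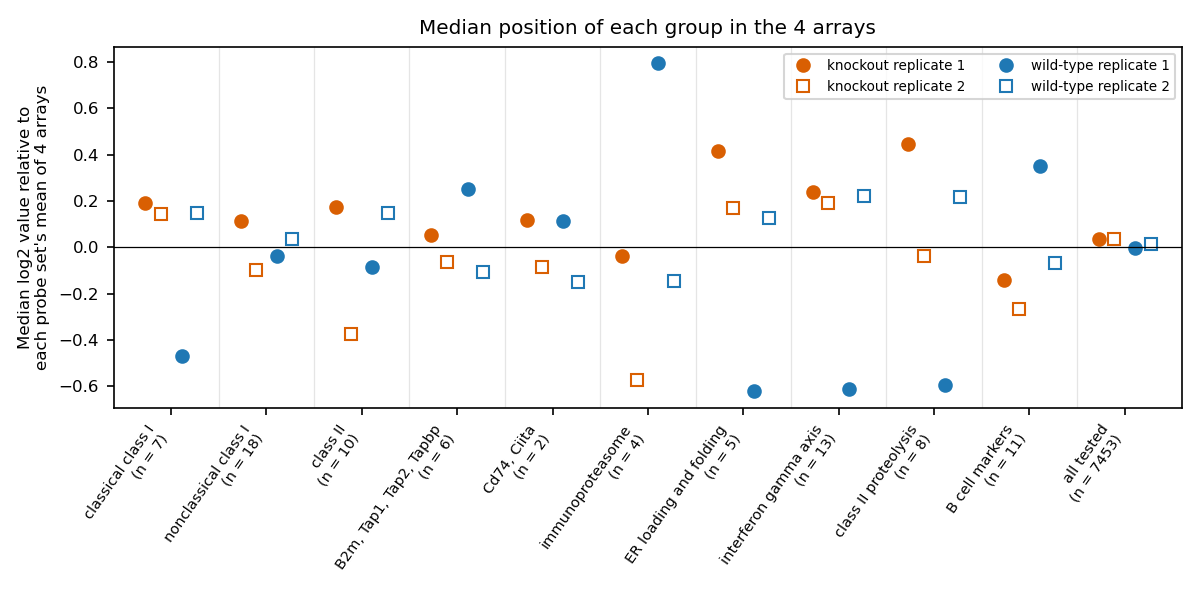
Median log2 value of each group of probe sets in each array (vertical axis), relative to each probe set's mean over the 4 arrays, with knockout arrays in orange and wild-type arrays in blue, replicate 1 filled and replicate 2 open. Wild-type replicate 1 is the outermost array for classical class I, the class I partners, the immunoproteasome, loading and folding genes, the interferon gamma axis, class II proteolysis and B cell markers. Knockout replicate 2 is lowest for class II.

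Cell type markers were read beside these groups, since class II genes depend on the cells present. B cell markers had 3 of 11 higher and 8 lower in knockout spleens, with a median of -0.48. For Fcer2a, whose product CD23 binds IgE, the arrays read 4181 and 2792 in knockout spleens, against 11178 and 8495 in wild-type spleens (-1.51, SE 0.42; unadjusted p = 0.00743, limma adjusted p = 0.992). Cd72 went the other way, at 22817 and 7730 in knockout spleens, against 6472.5 and 6566.5 in wild-type spleens (1.03, SE 0.55). Ms4a1, the defining B cell marker CD20, was bright in all 4 arrays, at 63896 and 65226 in knockout spleens, against 145330 and 56641 in wild-type spleens. Dendritic cell markers had a median of -0.03 over 9 probe sets, macrophage markers 0.29 over 11, T cell markers -0.50 over 9, erythroid markers -0.81 over 8 and neutrophil markers 1.13 over 10, all 10 higher in knockout spleens. Some of these medians rested on 1 array. The neutrophil median was 0.15, with 6 of 10 higher, when wild-type replicate 2 was left out, and the erythroid median 0.37, with 7 of 8 higher, when knockout replicate 1 was left out. The macrophage median was -0.24 without wild-type replicate 1, and the T cell median -0.18 without knockout replicate 2. For B cell markers the median was also -0.24 without wild-type replicate 1, with 8 of 11 still lower. The dendritic cell median was 0.34 without knockout replicate 1. The part of any of these in the member values was not tested.

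Other genes between the outermost H2 genes on chromosome 17 gave the setting of the region. Of 59 tested, 20 were higher and 39 lower in knockout spleens, with a median of -0.15 that was 0.01 without wild-type replicate 1. None passed limma's adjusted threshold or reached an unadjusted p under 0.05. Both knockout arrays lay above both wild-type arrays in 3 of the 59 (14.3% of all tested probe sets) and below them in 9 (12.2% of all tested probe sets). Lta, the gene of lymphotoxin alpha, differed by -0.90 and Ddx39b, an RNA helicase gene, by 0.72. Without wild-type replicate 1 these were -0.33 and 0.16.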

How the data were processed

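Total RNA of mouse spleen was measured on 4 one-colour expression arrays, 2 per genotype. The deposited values are probe-set intensities on a linear scale, 1 for each of 12488 probe sets in an array. Software and scaling: not given in the sources used here. Their 2% trimmed means lay between 2501.52 and 2502.03, and array medians between 798.55 and 854.55, so no further scaling was done.

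Intensities under the pooled 25th percentile, 185, were raised to that floor before log2, which understates differences of dim genes. Of 12422 non-control probe sets, the 7453 with a mean above the 40th percentile were tested with limma 3.58.1 in R 4.3.3 (lmFit, eBayes with intensity trend, 5.88 prior degrees of freedom). P-values are two-sided and were adjusted by Benjamini-Hochberg over the 7453, with 0.05 as the threshold. The median standard error was 0.46. The procedure was tested on simulated data. Python 3.11.15 and matplotlib 3.10.9 drew the figures.

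Symbols came from the platform annotation: 10833 probe sets had 1 symbol, 396 several and 1193 none. All 47 members with 1 symbol matched the GRCm38.p6 reference gene table by identifier, and 11 had several symbols. Promoter sequences and chromosomes come from RefSeq.

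Members and lists were chosen with earlier results of these data known. Every member is accounted for, with array values for the brightest probe set of each main gene, for genes whose probe sets disagreed by over 1 in log2 difference and for members with arrays of 1 genotype over 4-fold apart, and for further members of each class. From each list, some of the up to 4 members with the smallest p are named, and Ms4a1 as a defining marker. Replicate numbers are shared by the genotypes in the labels, but deviations of same-numbered arrays correlated at 0.039, and nothing states a pairing. The alternatives changed the scaling, floor, filter, variance model or threshold, added the replicate block, or left out arrays or marked probe sets.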

Additional observations from a re-analysis of the deposited data

How the results depend on the processing

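The count of members past the threshold was 0 under every alternative run: 3 scalings, 2 floors, 2 filters, no intensity trend, array weights, the replicate block, each array left out, marked probe sets left out and an adjusted p under 0.1. Over all tested probe sets the count of 4 became 7 with a pseudocount in place of the floor, 0 without a filter on dim probe sets, 36 with the replicate number as a block, 2 without marked probe sets, 7 at an adjusted p under 0.1, and 3 to 13 with 1 array left out. The block rests on a shared number alone, with a correlation of 0.039 between the 2 pairs' deviations. The classical class I median of 0.39 became 0.00 without a filter, which adds the 2 dim H2-D4 probe sets, and -0.74 without marked probe sets, where H2-K1 97700_at alone remains. With 1 array left out it lay between 0.12 and 0.67, the nonclassical class I median between -0.10 and 0.061, the class II median between -0.53 and 0.084, the class I partner median between -0.26 and 0.0805 and the class II partner median between -0.10 and 0.17. The median over class I partners took the other sign with arrays centred on their medians (-0.03), without a filter (-0.07) and without marked probe sets (-0.07), and that over class II partners with arrays centred on their medians (-0.02). The class II median was 0.00 without a filter, which adds 3 dim probe sets. The cause of these shifts was not tested. Differences of single members changed sign in 5, 3 and 4 of 48 members under quantile normalization, median centring and cyclic loess, and in 9, 9, 11 and 13 when knockout replicate 1, knockout replicate 2, wild-type replicate 1 or wild-type replicate 2 was left out. The smallest adjusted p of a member was 0.07562, without wild-type replicate 2, which leaves wild-type replicate 1 as the lone wild-type array, assumed to vary like the knockout arrays. With 2 arrays a group, the intervals of 23 members held a 2-fold rise and those of 30 a 2-fold fall.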

Other observations

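Several member probe sets of different genes and classes shared 1 order of the arrays, with wild-type replicate 2 highest, knockout replicate 1 next, and knockout replicate 2 and wild-type replicate 1 below them. Among these were H2-D1 101886_f_at, H2-Q4 99378_f_at, 102161_f_at with symbols of both class I kinds, and H2-Ob 104429_at. Of these, 101886_f_at and 102161_f_at share the symbol H2-D1, and both of them and H2-Q4 99378_f_at are family probe sets. All were picked after their values were seen, and no test was made of the order. How many of all tested probe sets share it was not counted. H2-T23 with H2-T-ps, H2-T18 and H2-T24 shared the opposite order of the wild-type arrays and have no gene symbol in common.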
